A study of Mus musculus with 6 samples.

Results

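Integrins and the proteins of the adhesion plaque were described in hearts of mouse embryos at embryonic day 9.5, across 43 genes chosen by name: 21 integrin chains and 22 cytoplasmic adhesion proteins. Of these, 38 had a row among the 15330 genes of the deposited table. The leukocyte chain Itgae, the β chains Itgb4, Itgb6 and Itgb7, and the kindlin Fermt1 had none and were not analysed here. The study deleted 373 kb of sequence upstream of Hand2, the H2-URI, with CRISPR-Cas9, and compared hearts by bulk RNA-seq to ask how far Hand2 and the genes downstream of it depend on that interval. There were 3 libraries of H2-URI d/d hearts, homozygous for the deletion, and 3 libraries of wild-type hearts. In each group 2 libraries were labelled female and 1 male, and all 6 carried batch number 1. The labels name no tissue-specific driver for the deletion, no strain, and not whether a library held 1 heart or a pool, so p-values here measure the spread between libraries.

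Integrins are cell surface receptors made of an α and a β chain. The α chain largely sets which matrix protein is bound, and the cytoplasmic tail of the β chain recruits talin and kindlin, which activate the receptor, and a plaque of adaptor proteins and kinases that ties it to actin. In the embryonic heart, integrins hold myocardium, endocardium and epicardium to laminin and fibronectin, and in muscle cells adhesion complexes sit at costameres, where the contractile apparatus meets the membrane.

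Values are normalized counts, that is, reads per gene scaled by the authors for library size. Reads assigned to the 15330 genes, worked back from the normalized counts, numbered between 25583210 and 32043595 per library. Differences are on the log2(normalized count + 1) scale, H2-URI d/d minus wild-type, and were tested with limma across all 15330 genes with Benjamini-Hochberg adjustment at a threshold of 0.05. Hand2, a basic helix-loop-helix transcription factor, had 1025, 1158 and 1163 normalized counts in H2-URI d/d libraries and 3911, 3789 and 4407 in wild-type libraries, and fell by 1.85 on the log2 scale (adjusted p = 1.51e-05, limma). Columns were matched to samples through the code in each sample's title. For 4 of the 6 files the record places the column in the other group, and under that record Hand2 was higher by 0.57 in H2-URI d/d, limma called 0 genes, and 414 were at an unadjusted p below 0.05. Every direction given for an integrin or adhesion gene therefore rests on the codes in the titles.

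Among the 38 measured genes, Itga2 rose and Itga7 and Itga9 fell in H2-URI d/d hearts, and the other 35 did not pass the test. The 3 calls make up 7.89% of the measured genes, against 3.05% of all genes tested, of which 1.55% were higher and 1.5% lower. The members were chosen with earlier results of these data known, so this share is no independent support. All 3 were among the 17 measured integrin chains. None of the 21 measured plaque proteins passed in limma or in edgeR, and 7 were at an unadjusted p below 0.05 in limma. Over all 15330 genes, 3281 were at an unadjusted p below 0.05 in limma, the background for every such count below. DESeq2 called Lims2 higher. Over all genes edgeR called 3.26% and DESeq2 7.43%. The H2-URI d/d and wild-type libraries did not overlap for 12 genes that were higher and 3 that were lower, together 39.5% of the 38. Over all genes the groups did not overlap for 27.4%, with 12.9% higher and 14.5% lower. The median log2 difference of the 38 genes was 0.11 and that of all genes was -0.01, with 63.2% of the 38 genes above 0 and 48.4% of all genes. This median was not recomputed under the alternatives described below. With a length and GC trend removed per library, Itga5, Itga3 and Tln1 went down on the log2 scale. They went from 0.20, 0.17 and 0.10 to 0.07, 0.04 and -0.06. Tln2 and Itgb5 also went down, from -0.12 and -0.08 to -0.27 and -0.18. Ilk and Itgb1 went up only slightly in that fit, from 0.06 and -0.05 to 0.07 and -0.03. These genes are examples, and the direction of this shift was not counted over the 38 genes. Of the 35 genes not called, 9 changed sign in at least 1 alternative.

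**Figure D1:**
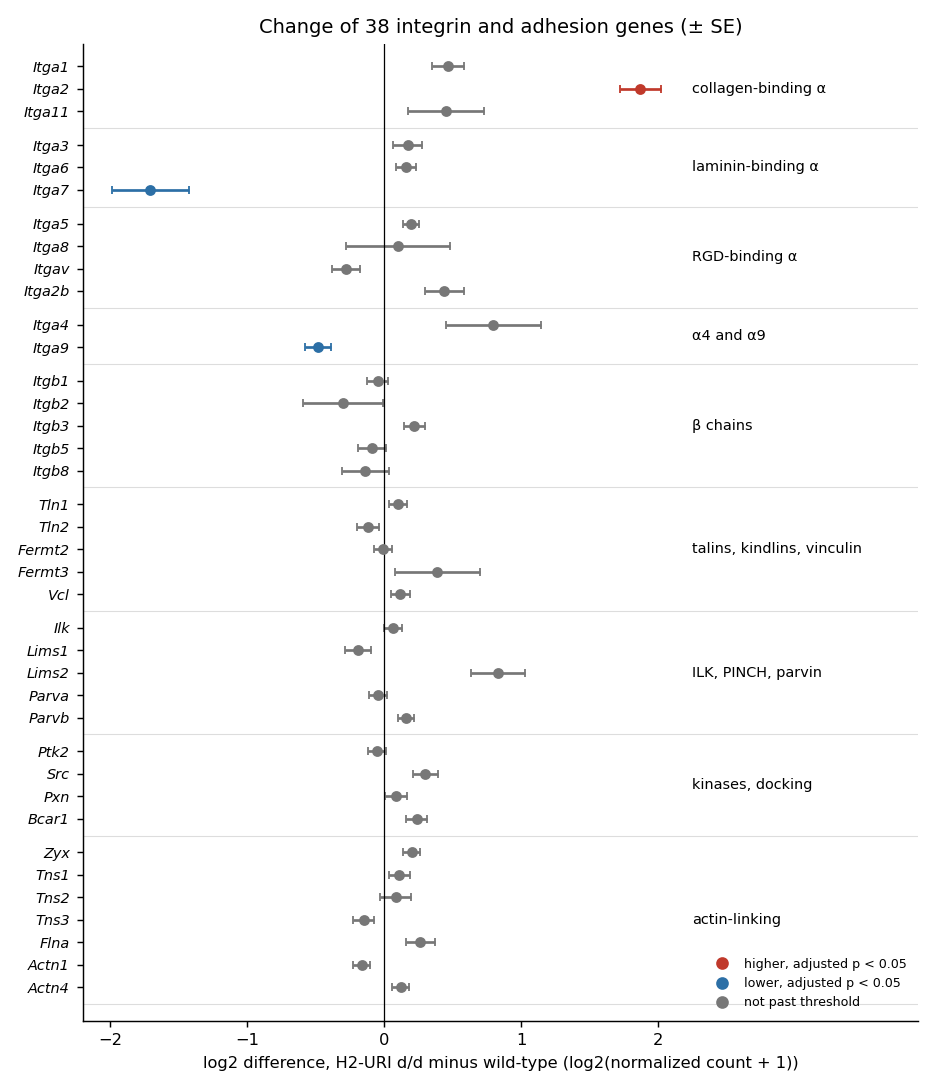
Log2 difference, H2-URI d/d minus wild-type, of log2(normalized count + 1) for the 38 measured genes, grouped by role; points are estimates and bars are standard errors (3 libraries per group). Itga2 lies far to the right at 1.87 and Itga7 far to the left at -1.70, while most plaque proteins lie close to 0.

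The collagen-binding α chains, which pair with β1, held the change with the smallest p. Itga2 encodes the α2 chain, a receptor for collagens and laminins known from platelets and epithelia. It had 211, 199 and 231 normalized counts in H2-URI d/d libraries, against 61.3, 50.7 and 61.3 in wild-type libraries. Every H2-URI d/d library stood more than 3 times above every wild-type library. Means were 214 ± 16.4 in H2-URI d/d and 57.8 ± 6.12 in wild-type (SD, n = 3 each), a ratio of 3.70 and a log2 difference of 1.87 (SE 0.15, adjusted p = 0.000335, limma). The counts behind these values were 200, 214 and 214 reads in H2-URI d/d and 54, 57 and 67 in wild-type. An exact two-sided permutation test over the 6 libraries gave p = 0.1, the smallest that 3 against 3 allows. Itga2 passed in all 20 alternatives that kept the title codes, with log2 differences between 1.78 and 1.92.

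Itga1, whose α1 chain also binds collagen and prefers collagen IV, lies beside Itga2 on chromosome 13. It had 1129, 1123 and 1349 normalized counts in H2-URI d/d and 725, 922 and 970.1 in wild-type. All H2-URI d/d libraries were above all wild-type libraries, and the log2 difference of 0.47 (SE 0.12) missed the threshold at an adjusted p of 0.0656 in limma. It passed in 4 of 20 alternatives, DESeq2 among them. Itga11, the α11 chain of mesenchymal collagen receptors, was low and variable, at 46.4 to 78.8 normalized counts in H2-URI d/d and 38.3 to 64.7 in wild-type (adjusted p = 0.388, limma).

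Per kb of the longest transcript, the scale on which levels of different genes can be set side by side, Itga2 averaged 30.1 normalized counts in H2-URI d/d and 8.13 in wild-type. Its rank among the 38 genes was 34 in H2-URI d/d and 37 in wild-type, so it stayed among the lowest in both. As a share of the summed level of Itga1, Itga2 and Itga11 per kb, it made up 20.9%, 19.4% and 19.0% in H2-URI d/d libraries and 9.82%, 7.22% and 8.23% in wild-type libraries. The ranges do not overlap. In bulk samples, more or fewer cells of a type and more or less RNA per cell cannot be told apart, here and for every gene that follows.

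**Figure D2:**
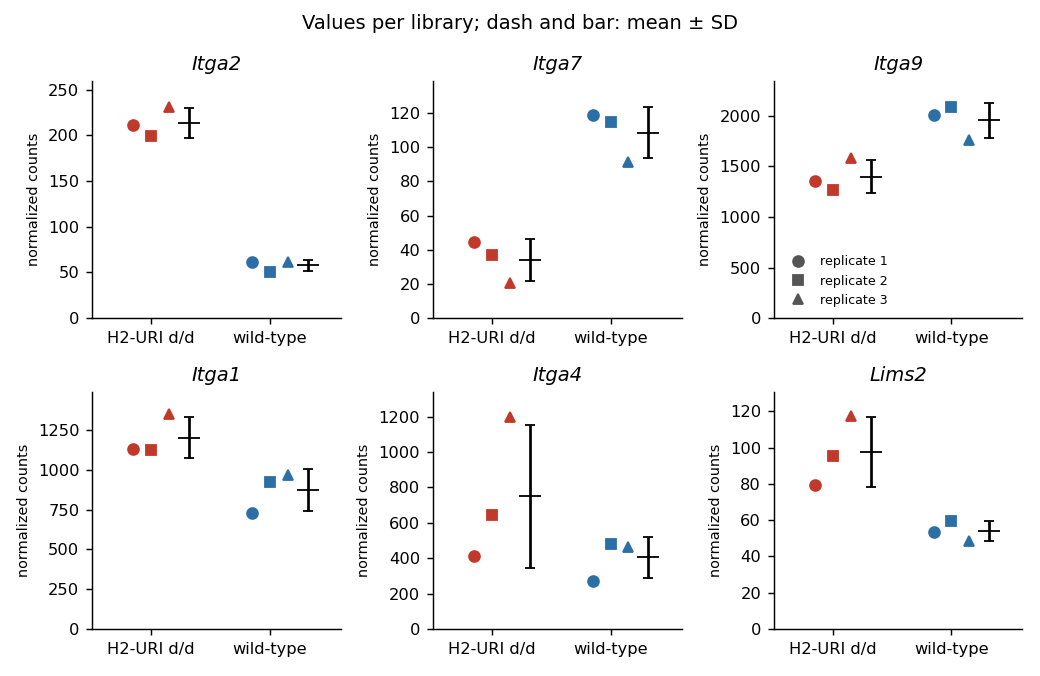
Normalized counts of 6 genes in each library, H2-URI d/d on the left of each panel and wild-type on the right; symbols mark replicates, dashes and bars are mean ± SD (n = 3). The groups are separate for Itga2, Itga7, Itga9, Itga1 and Lims2 and overlap for Itga4, where the highest H2-URI d/d library reaches 1194.

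The sequences upstream of the neighbours Itga2 and Itga1 are shown because Itga2 changed most of all 38 genes by p and Itga1 adjoins it. Each run gives the 250 bases before the annotated start (RefSeq, GRCm38.p6, both on the minus strand), Itga2 at chr13:114932101-114932350 and Itga1 at chr13:115101965-115102214, read 5′ to 3′ on the gene's strand. Capitals mark matches to CANNTG, the E-box core read by basic helix-loop-helix factors, which is the same on both strands.
Itga2: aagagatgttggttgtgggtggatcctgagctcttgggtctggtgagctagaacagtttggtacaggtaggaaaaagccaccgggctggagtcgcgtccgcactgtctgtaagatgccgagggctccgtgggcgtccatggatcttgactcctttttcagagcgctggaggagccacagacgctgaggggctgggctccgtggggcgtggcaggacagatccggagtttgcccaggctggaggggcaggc
Itga1: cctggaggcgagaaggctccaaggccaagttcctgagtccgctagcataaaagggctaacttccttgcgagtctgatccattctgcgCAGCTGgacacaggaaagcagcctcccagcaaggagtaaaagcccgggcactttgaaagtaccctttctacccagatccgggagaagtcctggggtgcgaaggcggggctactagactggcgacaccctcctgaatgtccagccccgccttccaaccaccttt
The Itga2 window held 0 matches to CANNTG, and the Itga1 window held 1, CAGCTG, beginning 163 bases before the start. Of 32851 promoter windows of this length, 66.2% held at least 1 match. The motif GGGCGG, searched on both strands, was in neither window and in 32.7% of all windows. A match or its absence describes these letters only.

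Among the laminin-binding α chains, Itga7 fell. It encodes the α7 chain, the laminin receptor of striated muscle, which pairs with β1. Itga7 had 44.3, 37.1 and 20.5 normalized counts in H2-URI d/d libraries and 119, 115 and 91.5 in wild-type libraries. The highest H2-URI d/d library was below the lowest wild-type library by more than the range within either group. The H2-URI d/d mean of 34.0 ± 12.2 was 31.3% of the wild-type mean of 108.5 ± 14.9 (SD, n = 3 each), a log2 difference of -1.70 (SE 0.28, adjusted p = 0.0156, limma). The transcript was thinly sampled, with 42, 40 and 19 reads in H2-URI d/d and 105, 129 and 100 in wild-type. The call held in 18 of 20 alternatives and missed without H2-URI d/d replicate 2 (adjusted p = 0.0617, limma) and without an intensity trend in the variance (adjusted p = 0.061, limma).

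The more abundant chains of the same subfamily did not pass. Itga6, the α6 chain and the most abundant α chain of these hearts per kb, had 16401, 16344 and 15239 normalized counts in H2-URI d/d and 13742, 13824 and 15447 in wild-type. Replicate 3 of the wild-type group lay within the H2-URI d/d range (adjusted p = 0.251, limma). Itga3, the α3 chain of epithelial and vascular basement membranes, averaged 1108 ± 48.5 in H2-URI d/d and 988 ± 150.2 in wild-type (SD, n = 3 each; adjusted p = 0.381, limma). Itga7 accounted for 0.273%, 0.229% and 0.136% of the summed level of Itga3, Itga6 and Itga7 per kb in H2-URI d/d, and for 0.859%, 0.83% and 0.602% in wild-type. It was thus a minor transcript of its subfamily in both groups at this stage. Genes of myocardium, the tissue in which α7 is known, summed to between 704876 and 776399 normalized counts in H2-URI d/d and between 664189 and 772763 in wild-type. None of the 7 passed in limma or edgeR, 2 were at an unadjusted p below 0.05 in limma, and DESeq2 called Myh6 higher and Tnni1 lower.

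In the subfamily of α4 and α9, Itga9 fell. The α9 chain pairs with β1 and binds tenascin-C, EMILIN1, VCAM-1 and the extra domain A of fibronectin, and it is known for the valves of lymphatic vessels. Itga9 had 1351, 1270.2 and 1579 normalized counts in H2-URI d/d libraries and 2010.2, 2091 and 1762 in wild-type libraries. The groups did not overlap, and the nearest libraries were replicate 3 of each. The H2-URI d/d mean was 1400.0 ± 160.1 and the wild-type mean 1954 ± 171 (SD, n = 3 each), 71.6% of wild-type and a log2 difference of -0.48 (SE 0.10, adjusted p = 0.0315, limma). Itga9 passed in 15 of 20 alternatives. Of the 5 it missed, 3 were the fits without H2-URI d/d replicate 1 (adjusted p = 0.12, limma), without H2-URI d/d replicate 2 (adjusted p = 0.149) and the fit with labelled sex as a covariate (adjusted p = 0.0542).

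Itga4, the related α4 chain that binds VCAM-1 and fibronectin and is known from epicardium, had 409.5, 644 and 1194 normalized counts in H2-URI d/d, against 269, 479 and 464 in wild-type. The H2-URI d/d libraries spread over a range larger than the difference between the group means (log2 difference 0.80, SE 0.35, adjusted p = 0.22, limma). The 6 epicardial markers summed to 2089, 2249 and 3495 in H2-URI d/d libraries and to 1459, 2303 and 1560 in wild-type libraries. The library with the highest Itga4 was thus also the one with the highest epicardial sum. That library also had the highest erythroid marker sum, at 447210, and the highest platelet and megakaryocyte marker sum, at 1119. None of the 6 epicardial markers passed in limma or edgeR, 3 were at an unadjusted p below 0.05 in limma, and DESeq2 called Tcf21 higher. The part of epicardial or blood cells in the Itga4 values was not tested. Itga9 made up 82.1%, 73.3% and 64.8% of the summed level of Itga4 and Itga9 per kb in H2-URI d/d libraries and 91.2%, 85.9% and 84.1% in wild-type libraries.

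**Figure D3:**
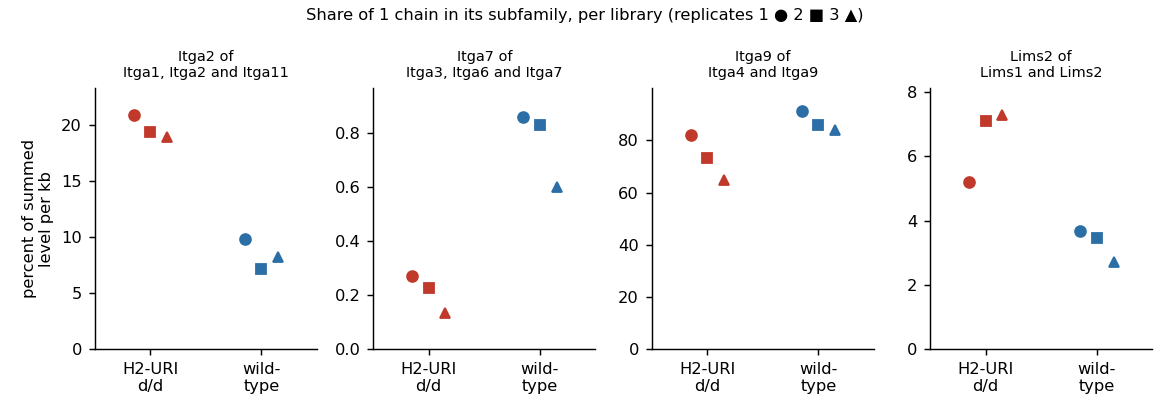
Share of a chain in the summed level per kb of its subfamily in each library, in percent, H2-URI d/d left and wild-type right; symbols mark replicates. The Itga2 and Lims2 shares are higher in all H2-URI d/d libraries, and the Itga7 and Itga9 shares are lower in all of them.

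The α chains that recognise the RGD tripeptide bind fibronectin, vitronectin, nephronectin and latent TGF-β. None of the 4 passed in limma or edgeR, 3 were at an unadjusted p below 0.05 in limma, and DESeq2 called Itga5 higher. Itga5, the main fibronectin receptor chain, had 4713, 4784 and 4619 normalized counts in H2-URI d/d and 4018, 4057 and 4247 in wild-type. The groups were narrow and did not overlap, with a log2 difference of 0.20 (SE 0.06, adjusted p = 0.0953, limma). Itgav, the αv chain shared by several β partners, had 2547, 2265 and 2469.9 in H2-URI d/d and 2502, 3078 and 3304 in wild-type. Wild-type replicate 1 lay among the H2-URI d/d libraries (log2 difference -0.28, adjusted p = 0.153, limma), and without it the difference was -0.40 (adjusted p = 0.017). Leaving out the overlapping library widens the difference by construction, and 4.02% of all genes passed in that fit. It was the only pass of Itgav among 6 fits that each left out a library, with adjusted p up to 0.402 in the others (limma).

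Itga2b, the αIIb chain of megakaryocytes and early blood progenitors, had 372, 461 and 457 normalized counts in H2-URI d/d and 297, 384 and 273 in wild-type (adjusted p = 0.12, limma). Wild-type replicate 2 overlapped the H2-URI d/d group, and without it the log2 difference was 0.58 (adjusted p = 0.0305, limma). Leaving out the overlapping library widens the difference by construction, and 7.57% of all genes passed in that fit. It was the only pass of Itga2b among 6 fits that each left out a library, with adjusted p up to 0.335 in the others (limma). Itga8, the nephronectin receptor chain, ranged from 87.6 to 208 in H2-URI d/d and from 67.7 to 173 in wild-type. Its coefficient of variation was 45.6% in H2-URI d/d and 42.4% in wild-type, too wide for a difference of the size seen to be resolved (log2 difference 0.10, SE 0.38, limma).

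None of the 5 measured β chains passed in limma, edgeR or DESeq2, and 1, Itgb3, was at an unadjusted p below 0.05 in limma. Itgb1, the partner of most α chains named here, had 19615, 18637 and 19034 normalized counts in H2-URI d/d and 18314, 19632 and 21298 in wild-type. The wild-type range contained all H2-URI d/d libraries (log2 difference -0.05, SE 0.08, adjusted p = 0.773, limma). Itgb3, the β3 chain, had 1624, 1933 and 1818 in H2-URI d/d and 1532, 1604 and 1465 in wild-type, without overlap (log2 difference 0.22, adjusted p = 0.147, limma). Itgb5 averaged 946 ± 36.2 in H2-URI d/d and 1009 ± 148 in wild-type, and Itgb8 averaged 349 ± 54.2 in H2-URI d/d and 387 ± 83.0 in wild-type (SD, n = 3 each). Itgb2, the leukocyte chain, was at 13.7 to 21.6 normalized counts in H2-URI d/d and 20.4 to 22.0 in wild-type, the lowest level per kb of the 38 genes.

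Per kb, Itgb1, Itga6 and Itga5 had the highest levels of the integrin chains in both groups. Itgb1 stood at 5005 in H2-URI d/d and 5176 in wild-type, Itga6 at 3711 in H2-URI d/d and 3327 in wild-type, and Itga5 at 1066 in H2-URI d/d and 930.4 in wild-type. The 11 measured α chains that pair with β1 summed to 5856, 5856 and 5717 per kb in H2-URI d/d libraries and to 5145, 5270 and 5625 in wild-type libraries. Itgb1 itself stood at 5142, 4885 and 4989 per kb in H2-URI d/d libraries and at 4801, 5146 and 5583 in wild-type libraries. The α sum was higher in all H2-URI d/d libraries, while the β1 levels overlapped. Itga6 alone made up 61.8% to 65.0% of that α sum in H2-URI d/d and 60.9% to 63.7% in wild-type, so the 3 chains that changed were minor parts of it.

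**Figure D4:**
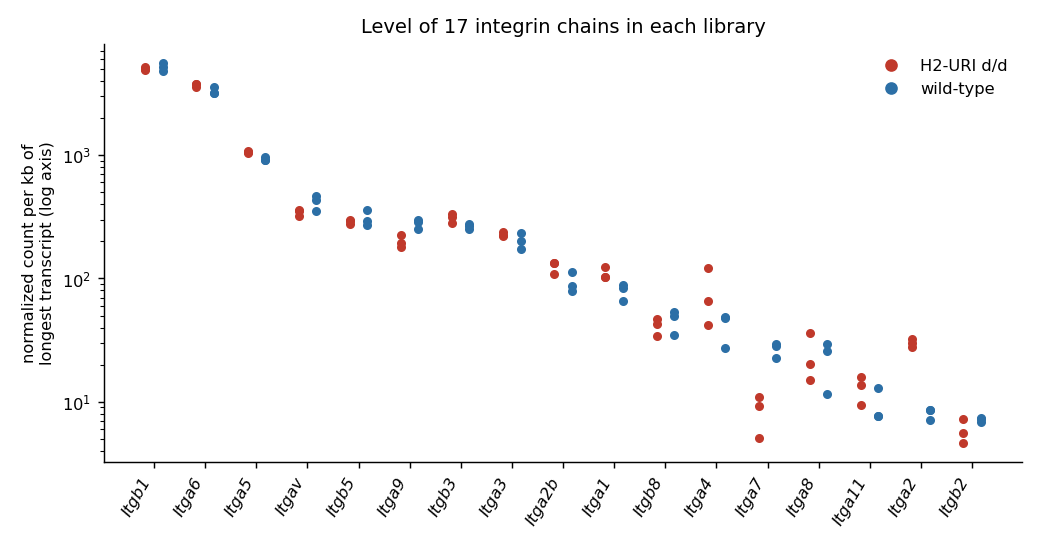
Normalized count per kb of the longest transcript (log axis) for the 17 measured integrin chains in each library. H2-URI d/d is left and wild-type right of each position, and chains are ordered by wild-type mean. Itgb1, Itga6 and Itga5 lead in both groups, and the shifts of Itga2 and Itga7 lie at the low end.

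In the plaque, talin and kindlin bind the β tail and vinculin reinforces the link to actin under load. Tln1 averaged 7201 ± 373 normalized counts in H2-URI d/d and 6708 ± 314 in wild-type. Fermt2, the kindlin of the heart, averaged 8213 ± 327 in H2-URI d/d and 8248 ± 276 in wild-type (SD, n = 3 each), a log2 difference of -0.01. Tln2, the talin enriched in muscle, had a log2 difference of -0.12, and Vcl, which encodes vinculin, 0.12. Vcl libraries did not overlap, at 10384 to 10689 in H2-URI d/d and 8985 to 10281 in wild-type, yet the gap was small beside the spread (adjusted p = 0.361, limma). Fermt3, the kindlin of blood cells, had 129, 227 and 253 in H2-URI d/d and 123, 235 and 113 in wild-type. The 6 erythroid markers summed to 83886, 213438 and 447210 in H2-URI d/d and 201859, 345979 and 118345 in wild-type. Within each group the library with the least Fermt3 was also the one with the lowest erythroid sum. The part of blood cells in the Fermt3 values was not tested.

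Integrin-linked kinase, PINCH and parvin form a complex that joins β tails to actin. Lims2, which encodes PINCH2, had 79.2, 95.6 and 118 normalized counts in H2-URI d/d libraries and 53.3, 59.6 and 48.5 in wild-type libraries. All H2-URI d/d libraries were higher, with a log2 difference of 0.83 (SE 0.20) that missed the threshold at an adjusted p of 0.0559 in limma. It passed in 4 of 20 alternatives, in which its adjusted p lay between 0.0213 and 0.0467. Its more abundant paralog Lims1, PINCH1, averaged 3240.0 ± 297 in H2-URI d/d and 3698 ± 410.0 in wild-type (SD, n = 3 each; log2 difference -0.19, adjusted p = 0.293, limma). Lims2 made up 5.19%, 7.08% and 7.28% of the summed PINCH level per kb in H2-URI d/d and 3.68%, 3.46% and 2.72% in wild-type. Ilk and Parva differed by 0.06 and -0.04 on the log2 scale. Parvb, β-parvin, had 2910.0, 2967 and 3151 in H2-URI d/d and 2700.3, 2731 and 2648 in wild-type, a separation of 0.16 on the log2 scale (adjusted p = 0.167, limma).

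None of the 4 measured kinases and docking proteins passed in limma, edgeR or DESeq2, and 2 were at an unadjusted p below 0.05 in limma. Src, the kinase that acts with focal adhesion kinase, had 918, 1014 and 869 normalized counts in H2-URI d/d and 795, 786 and 692 in wild-type (log2 difference 0.30, SE 0.09, adjusted p = 0.0953, limma). Bcar1, the docking protein p130Cas, had 2231, 2332 and 2186 in H2-URI d/d and 2048, 1709.8 and 1976 in wild-type (log2 difference 0.24, adjusted p = 0.121, limma). Both sets of libraries were separate. Ptk2, focal adhesion kinase itself, averaged 3019 ± 113 in H2-URI d/d and 3131 ± 169 in wild-type, and Pxn, the scaffold paxillin, 1385 ± 96.3 in H2-URI d/d and 1303 ± 92.6 in wild-type (SD, n = 3 each).

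Of the 7 actin-linking proteins, none passed in limma, edgeR or DESeq2, and 3, Zyx, Flna and Actn1, were at an unadjusted p below 0.05 in limma. Zyx, the tension-responsive protein zyxin, had 3487, 3742 and 3871 normalized counts in H2-URI d/d and 3264, 3255 and 3127 in wild-type (log2 difference 0.20, adjusted p = 0.109, limma). Flna, the actin crosslinker filamin A, had 18839, 21932 and 20240.5 in H2-URI d/d and 18402, 18284 and 14306 in wild-type (0.27, adjusted p = 0.194). The α-actinins, which crosslink actin, went opposite ways in their values. Actn1 had 8167, 8001 and 7496 in H2-URI d/d and 8838, 8830.2 and 8829 in wild-type, lower in all H2-URI d/d libraries (-0.16, adjusted p = 0.165), and Actn4 had 10615, 11052 and 11179.7 in H2-URI d/d and 10491, 9870.1 and 9859.9 in wild-type, higher in all of them (0.12, adjusted p = 0.303). The tensins Tns1, Tns2 and Tns3, which sit at the inner ends of adhesions, differed by 0.11, 0.09 and -0.15, with overlapping libraries.

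Of 27 listed integrin ligands 25 were measured, and 8 of them, 32%, passed against 3.05% of all genes, 2 higher and 6 lower. The list was chosen with earlier results of these data known, so its share of calls is no independent measure of how often ligands changed. Lama3, the laminin α3 chain of epithelial basement membrane, had 144, 119 and 145 normalized counts in H2-URI d/d and 64.7, 58.7 and 59.5 in wild-type. Lama5, the laminin α5 chain, had 3058, 3407 and 3098 in H2-URI d/d and 2249.7, 2237 and 1883 in wild-type. Both were separate between groups, with log2 differences of 1.14 (SE 0.16, adjusted p = 0.00703, limma) and 0.59 (SE 0.08, adjusted p = 0.00756). Lama3 passed in all 20 alternatives that kept the title codes and Lama5 in 18, missing without H2-URI d/d replicate 2 (adjusted p = 0.0546, limma). Laminins with these chains are ligands of α3 and α6 integrins, whose transcripts did not pass. Krt19, an epithelial keratin, was higher in all H2-URI d/d libraries, at 2322 to 2376 against 1255 to 1356 in wild-type (log2 difference 0.86, adjusted p = 0.000152, limma), the single call among 8 measured epithelial markers, of which 3 were at an unadjusted p below 0.05. Pax9 had 57.0, 26.0 and 118 normalized counts in H2-URI d/d and 26.1, 4.45 and 3.66 in wild-type (adjusted p = 0.0715, limma), and Pax1 had 50.7, 30.6 and 19.4 in H2-URI d/d and 27.2, 5.34 and 0 in wild-type (adjusted p = 0.182, limma). Epcam, Cdh1, Krt8, Krt18 and Shh overlapped between groups, with H2-URI d/d means at 70.6% to 104% of the wild-type means. The 8 markers summed to 7555 to 7988 in H2-URI d/d and 5647 to 7625 in wild-type, and Foxa2 had no row. Krt8, Krt18 and Krt19 made up most of each sum. Epcam, Cdh1 and Shh were highest in wild-type replicate 1, at 263, 337 and 154 normalized counts. The part of epithelial cells in the Lama3, Lama5 and Itga2 values was not tested.

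Of the α9 ligands on the list, Tnc and Emilin1 fell, and Vcam1 and Fn1 did not pass in limma. Fn1, the gene of fibronectin, was higher by 0.27 on the log2 scale without overlap, and DESeq2 called it higher. Counts per gene do not separate the extra domain A that α9 binds. Tnc, which encodes tenascin-C, had 1181, 1684 and 1457 normalized counts in H2-URI d/d and 3323, 4065 and 2599 in wild-type. Emilin1, an elastic fibre glycoprotein, had 1107, 1289 and 1319 in H2-URI d/d and 1989, 1808 and 1594 in wild-type. They fell by 1.20 (SE 0.16, adjusted p = 0.0063, limma) and by 0.54 (SE 0.10, adjusted p = 0.0224) on the log2 scale. Tnc passed in 19 of 20 alternatives and Emilin1 in 15. Emilin1 missed when any H2-URI d/d library was left out (adjusted p between 0.0594 and 0.0971, limma). Vcam1, shared with α4, had 8842, 7595 and 6758 in H2-URI d/d and 5696, 5979 and 7295 in wild-type, with overlap (log2 difference 0.29, adjusted p = 0.187, limma).

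Among the other ligands, Col3a1, a fibrillar collagen, fell with a log2 difference of -1.26 (adjusted p = 0.00126, limma) and Nid1, the basement membrane linker nidogen-1, with -0.50 (adjusted p = 0.0063). Postn, periostin of cushion mesenchyme, had 109, 117 and 227 normalized counts in H2-URI d/d and 259, 414 and 384 in wild-type, a log2 difference of -1.27 (adjusted p = 0.0412, limma). The groups did not overlap for Postn, though the highest H2-URI d/d library came near the lowest wild-type library. Postn passed in 14 of 20 alternatives and missed without H2-URI d/d replicate 1 or 2 and without wild-type replicate 2 or 3 (adjusted p between 0.0565 and 0.172, limma). The cushion markers Twist1 and Msx1 were also lower, and Sox9, Msx2 and Prrx1 did not pass. With any H2-URI d/d library left out, Twist1 missed (adjusted p between 0.068 and 0.0899, limma), and Msx1 missed in those fits and without wild-type replicate 3 (adjusted p between 0.061 and 0.126). The 6 cushion markers summed to 1920 to 2266 in H2-URI d/d and to 2441 to 3232 in wild-type, and their part in the ligand values was not tested. Icam2, an endothelial ligand of leukocyte integrins, averaged 589 ± 23.7 in H2-URI d/d and 831 ± 117 in wild-type (SD, n = 3 each; adjusted p = 0.0444, limma). Icam2 passed in 12 of 20 alternatives and, of the 6 fits that left out a library, only in that without wild-type replicate 2 (adjusted p between 0.0653 and 0.17 in the other 5, limma). Fn1, fibronectin, stood at 51517, 56102 and 53897 in H2-URI d/d and at 41950.5, 47283 and 44363 in wild-type. The Fn1 groups did not overlap, and the log2 difference of 0.27 (SE 0.09) did not pass (adjusted p = 0.113, limma).

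**Figure D5:**
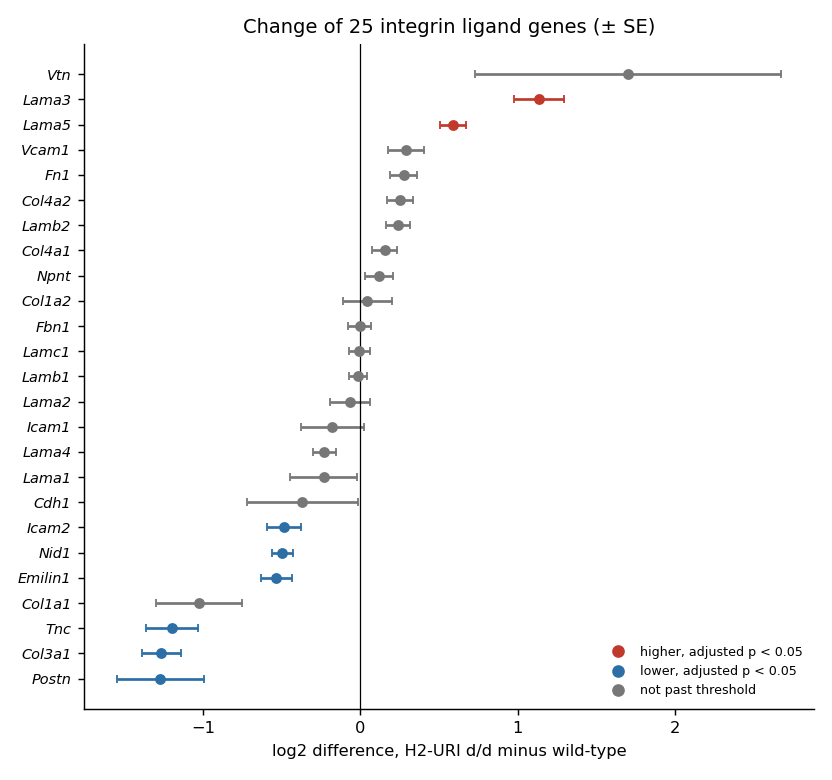
Log2 difference, H2-URI d/d minus wild-type, of log2(normalized count + 1) for 25 measured integrin ligand genes, ordered by value; points are estimates and bars are standard errors (3 libraries per group). Lama3 at 1.14 and Lama5 at 0.59 passed on the right, 6 genes passed on the left, and Vtn has a wide bar.

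Beyond the named members, 53 of 54 listed plaque and signalling proteins were measured and 2 passed, 3.77% against 3.05% of all genes. Sdc4, the heparan sulfate proteoglycan syndecan-4, a co-receptor of fibronectin-binding integrins, had 527, 465 and 535 normalized counts in H2-URI d/d and 320.1, 384 and 348 in wild-type (log2 difference 0.54, SE 0.10, adjusted p = 0.0274, limma). Cd9, a tetraspanin that associates with β1 integrins, had 459, 411 and 437 in H2-URI d/d and 625, 589.8 and 642 in wild-type (log2 difference -0.51, SE 0.09, adjusted p = 0.0167, limma). In both genes the groups were separate. Sdc4 passed in 14 of 20 alternatives and Cd9 in 15. Both missed with any H2-URI d/d library or wild-type replicate 3 left out, at adjusted p between 0.0788 and 0.119 for Sdc4 and between 0.052 and 0.0955 for Cd9 (limma). Of 5 further integrin chains, Itga10 alone had a row, at 57.6 to 74.9 in H2-URI d/d and 33.9 to 59.0 in wild-type (adjusted p = 0.406, limma).

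Defining markers of other cells bear on the chains known from blood. For leukocytes, Ptprc, Tyrobp and Cx3cr1 had no row, and the 4 measured markers summed to 211 to 254 normalized counts in H2-URI d/d and 257 to 301 in wild-type. For platelets and megakaryocytes, Gp9, Gp1bb and Gp6 had no row, and the 4 measured, Itga2b among them, summed to 546, 839 and 1119 in H2-URI d/d and 572, 892 and 484 in wild-type. The part of platelets and megakaryocytes in the Itga2 and Itga2b values was not tested. In limma, edgeR and DESeq2, 0 leukocyte and 0 platelet markers passed, and 1 of each list was at an unadjusted p below 0.05. In limma the leukocyte marker was Laptm5, lower in H2-URI d/d, and the platelet marker was Itga2b itself. The remaining platelet markers Pf4, Ppbp and Gata1 were at unadjusted p of 0.82, 0.84 and 0.54 (limma). The 6 erythroid markers and 2 measured neural markers also had 0 calls in these tools and 0 at an unadjusted p below 0.05, the neural sums being 161 to 190.1 in H2-URI d/d and 182 to 201 in wild-type. The 7 endothelial and endocardial markers summed to 21526 to 22441 in H2-URI d/d and 20740 to 22034 in wild-type, with Kdr higher (log2 difference 0.33, adjusted p = 0.0317, limma) and Tek lower (-0.35, adjusted p = 0.0178). Kdr passed in 12 of 20 alternatives and Tek in 14. Both missed with any H2-URI d/d library or wild-type replicate 3 left out, at adjusted p between 0.0608 and 0.16 for Kdr and between 0.069 and 0.0957 for Tek (limma).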

How the data were processed

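Total RNA of 6 embryonic heart samples was made into stranded poly(A) libraries from 300 ng each, per the labels' protocols. Per the submitters' processing notes, the tools were STAR 2.7.9a, Subread 2.0.1 with featureCounts, bcl2fastq 2.20 and DESeq2 1.30.1, with builds GRCm39 and mm39. The sources used here give no annotation, gene filter or strand setting of the counting, and 24 of the 38 genes overlap another annotated gene, 5 a measured one. The deposited values are normalized counts, a signal the authors scaled per library, per the file headers and names. The table has 15330 genes and 6 columns, and 5 further files each repeat a column.

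In each library, 100% of values divided by the value of a read were whole (tolerance 0.01), and these recovered reads went only into the edgeR and DESeq2 alternatives. In 3 columns the smallest value was 2 reads, so the value of a read came from the smallest gap between values and not from the smallest value. The two-sided test was the trend method of limma 3.58.1 in R 4.3.3, run on log2(normalized count + 1) and adjusted over all genes. A minimum mean of 10 was set, and the lowest mean in the table was 15.4. Alternatives were the pseudocount, filters, scaling, the variance prior, DESeq2 (1.42.0), the quasi-likelihood test of edgeR (4.0.16), labelled sex, a replicate block, a length and GC trend removed per library (splines with 4 degrees of freedom), the recorded file assignment and each library left out. The test was tried on simulated counts.

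Members and gene lists were chosen with earlier results of these data known, and no pattern is given as independent support. Named genes are every measured member, up to 6 called genes by smallest p of each pathway list, and called or undetected markers. Fn1, Vcam1, Postn, Icam2 and the uncalled cushion and epithelial markers, Pax9 and Pax1 among them, were named beyond this rule, after their values were seen. GENCODE M21 (GRCm38), another build than the authors', gave transcript lengths for 96.9% of genes, and RefSeq (GRCm38.p6) gave neighbours and promoter sequences, with an entry for 29 of the 38 genes.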

Additional observations from a re-analysis of the deposited data

How the results depend on the processing

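Of 20 alternatives that kept the title codes, Itga2 passed in 20, Itga7 in 18 and Itga9 in 15, and dropping the low-value filter left the same genes. Of the 35 members that did not pass, 5 passed in at least 1 alternative (Itga1, Itga5, Lims2, Itgav and Itga2b), 9 changed sign in at least 1, and 21 did neither. Members called higher numbered 1; they numbered 4 with equal totals without haemoglobin and with DESeq2, 2 with a robust variance prior, with labelled sex and with length and GC removed, and 1 to 3 with a library left out (3 without wild-type replicate 2). Members called lower numbered 2; they numbered 0 without an intensity trend, 1 with labelled sex and with the replicate block, 3 with length and GC removed, and 0 to 3 with a library left out (1 without H2-URI d/d replicate 1, 0 without H2-URI d/d replicate 2, 3 without wild-type replicate 1). Ligand calls were 1 to 4 higher and 1 to 7 lower. Over all genes, 237 were higher and 230 lower; the counts were 539 and 600 with DESeq2, 73 and 73 without an intensity trend, and 393 and 209 with equal totals without haemoglobin. With a library left out they ranged from 42 to 466 higher and from 61 to 695 lower, the low counts arising with any H2-URI d/d library left out or without wild-type replicate 3 and the high ones without wild-type replicate 2. Higher calls were 50.7% of all calls, 65.3% with equal totals without haemoglobin and 38.5% with length and GC removed. The cause of these shifts was not tested. Replicate numbers did not pair the libraries (same-number correlations of deviations -0.03, -0.12 and -0.14), and a replicate block gave 96 genes higher and 110 lower, with 1 member higher and 1 lower. Itga9 missed with the block (adjusted p = 0.0846, limma) and without an intensity trend (adjusted p = 0.119). Under the recorded file assignment 0 genes and 0 members passed, and log2 differences were 0.57 for Hand2, -0.61 for Itga2, 0.30 for Itga7, 0.38 for Itga9, 0.14 for Cd9, 0.64 for Col3a1, 0.35 for Emilin1, 0.035 for Icam2, -0.19 for Kdr, -0.34 for Krt19, -0.29 for Lama3, -0.11 for Lama5, 0.18 for Msx1, 0.24 for Nid1, 0.77 for Postn, -0.12 for Sdc4, 0.059 for Tek, 0.64 for Tnc and 0.60 for Twist1. Counts of 19 to 129 reads per library limit the precision of Itga7.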

Other observations

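The genes beside the 3 called integrins were looked up after the values were seen. On chromosome 13, Itga2 lies between Mocs2 and Itga1. Fst, which encodes the activin inhibitor follistatin and lies just past Mocs2, had 97.1, 77.1 and 112 normalized counts in H2-URI d/d libraries and 62.4, 42.7 and 64.1 in wild-type libraries. Its groups did not overlap and its log2 difference of 0.76 (SE 0.22) did not pass (adjusted p = 0.0962, limma). Mocs2 had a log2 difference of -0.21 (adjusted p = 0.266), and Pelo, which lies within Itga1, had 0.19 (adjusted p = 0.312). Of the measured genes next to Itga7, Bloc1s1 had -0.41 (adjusted p = 0.352) and Rdh5 0.06 (adjusted p = 0.921). The 4 nearest measured neighbours of Itga9, Golga4, Cmc1, Ctdspl and Vill, had log2 differences between -0.17 and 0.31, and none passed in limma.

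The wild-type values of Actn1, 8838, 8830.2 and 8829 normalized counts, had a coefficient of variation of 0.0506%, against 4.43% in H2-URI d/d. The wild-type reads behind them were 7786, 9926 and 9648. This gene was singled out after its values were seen.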
